A study of Mus musculus with 768 samples.

Results

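The 38 genes described here are the glycolysis and hypoxia genes of mouse endothelial cells, 38 of the 51734 gene symbols counted. They are 20 members of glycolysis (the glucose transporter gene Slc2a1, 13 enzyme genes, 2 regulator genes and 4 genes of the fate of pyruvate) and 18 of the hypoxia response (6 of the HIF pathway and 12 responsive genes). They were taken by symbol from count tables of single sorted cells.

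Cells were sorted by flow cytometry, 1 per well of 96-well plates, and read with Smart-seq2, which copies whole transcripts after reverse transcription. TU_HEV cells were CD45-CD31+MECA79+ cells of PyMT tumours, in which the MECA-79 antibody marks high endothelial venules, the vessels that let lymphocytes enter a tissue. LN_HEV cells had the same gate and came from lymph node. TU_EC cells were CD45-CD31+MECA79- cells of PyMT tumours. The tumours were digested with enzymes, and immune and EpCAM-positive cells were removed on beads before sorting. The labels name no strain, age, treatment or animal for any group, so each of the 3 groups is 1 sample, plates are not known to be separate animals, and no test or p-value is given.

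Glycolysis splits glucose into pyruvate, and cells without oxygen turn the pyruvate into lactate and export it. Endothelial cells are known to make much of their ATP this way even where oxygen is present, and PFKFB3 drives glycolysis in sprouting vessels. With oxygen, prolyl hydroxylases (EGLN proteins) mark the HIF-alpha proteins for destruction through VHL. Without oxygen, HIF-alpha pairs with ARNT and switches on genes of glycolysis, blood flow, mitophagy and matrix. HIF-alpha is controlled mostly as a protein, which counts of RNA do not measure.

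After filtering, the TU_HEV group held 98 cells (50 on plate pool3 and 48 on pool4), LN_HEV held 62 cells of pool1 and 79 of pool2, and TU_EC held 66, 80, 80 and 71 cells of plates poolA, poolB, poolC and poolD. Their counts summed to 132533194, 118731907 and 151751393 in that order of groups, without 2 features of ribosomal RNA. The median total per cell was 1347865 counts in TU_HEV, 871677 in LN_HEV and 431630 in TU_EC. The libraries of TU_HEV and LN_HEV were numbered in 1 series and those of TU_EC in another, so a library effect and the difference of TU_EC from the others cannot be told apart. Ribosomal RNA took a median of 9.24% of counts in TU_HEV cells, 9.60% in LN_HEV cells (29.5% on plate pool1 and 7.13% on pool2) and 30.0% in TU_EC cells. In 14 LN_HEV libraries of pool1, at least 99.72% of the counts of 1 or more TU_HEV libraries (22 in all) were found gene by gene; 11 of these were left out, and in the other 3 the held counts make 0.135% of the LN_HEV total. The endothelial genes Pecam1, Cdh5, Tie1, Egfl7 and Eng summed to 7463, 6450 and 8458 CPM (read counts scaled by the summed total) in TU_HEV, LN_HEV and TU_EC. The high endothelial genes Chst4, Glycam1, Fut7, Enpp2 and Ackr1 summed to 3554, 85214 and 248.3 CPM. In TU_HEV most of that sum was Ackr1, at 2734 CPM, while Glycam1 had 140.9 CPM in TU_HEV, 77494 in LN_HEV and 0.290 in TU_EC, and 31 of 98 TU_HEV cells held at least 3 of the 5 genes.

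Levels were compared as ratios of summed CPM with 95% intervals. These cover counting error only, and PCR copies without molecular identifiers are not independent molecules. A gene was counted as higher or lower when the ratio was at least 2-fold and the plates of both groups did not overlap, among genes with a mean of at least 5 CPM over the 3 groups. The members Hk2, Pfkfb4, Vegfa and Car9 fell below that mean, so 34 of 38 could be counted. Slc16a3, Egln3, Adm and Ankrd37 reached it only through TU_EC.

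TU_HEV cells carried more glycolysis and hypoxia RNA than LN_HEV cells and, for the enzymes, less than TU_EC cells. Against LN_HEV, 12 members were higher in TU_HEV and 3 lower, or 35.3% and 8.82% of the 34; among all genes 16.7% were higher and 9.54% lower. Against TU_EC, 2 members were higher in TU_HEV and 6 lower, or 5.88% and 17.6%, where 8.12% and 8.84% of all genes were. The 6 include Slc16a3, Egln3, Adm and Ankrd37, which passed the filter only through TU_EC. LN_HEV had 3 members higher than TU_EC and 21 lower, or 8.82% and 61.8%, where 9.62% and 17.5% of all genes were. The 21 also include Slc16a3, Egln3, Adm and Ankrd37, so the filter favoured these calls too. Against TU_EC, the TU_HEV split became 4 higher and 5 lower when ribosomal RNA was kept in the totals. The share lower in TU_HEV than in LN_HEV, and the shares higher than in TU_EC, lay near those of all genes. These comparisons share groups, so they are not independent of each other.

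The median log2 ratio of TU_HEV to LN_HEV was 0.65 over the glycolysis members and 0.70 over the hypoxia members, where all genes had a median of 0.17. Pairs of plates gave 0.60 to 0.70 for glycolysis and 0.16 to 0.94 for hypoxia. TU_HEV to TU_EC had medians of -0.65 and -0.39, beside -0.03 for all genes. The hypoxia median of that pair turned to 0.01 with ribosomal RNA in the totals. LN_HEV to TU_EC had the widest gaps, with medians of -1.16 and -1.86 beside -0.17 for all genes. Leaving the 20 highest features out of the totals moved the all-gene median of TU_HEV to LN_HEV to -0.05.

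**Figure D1:**
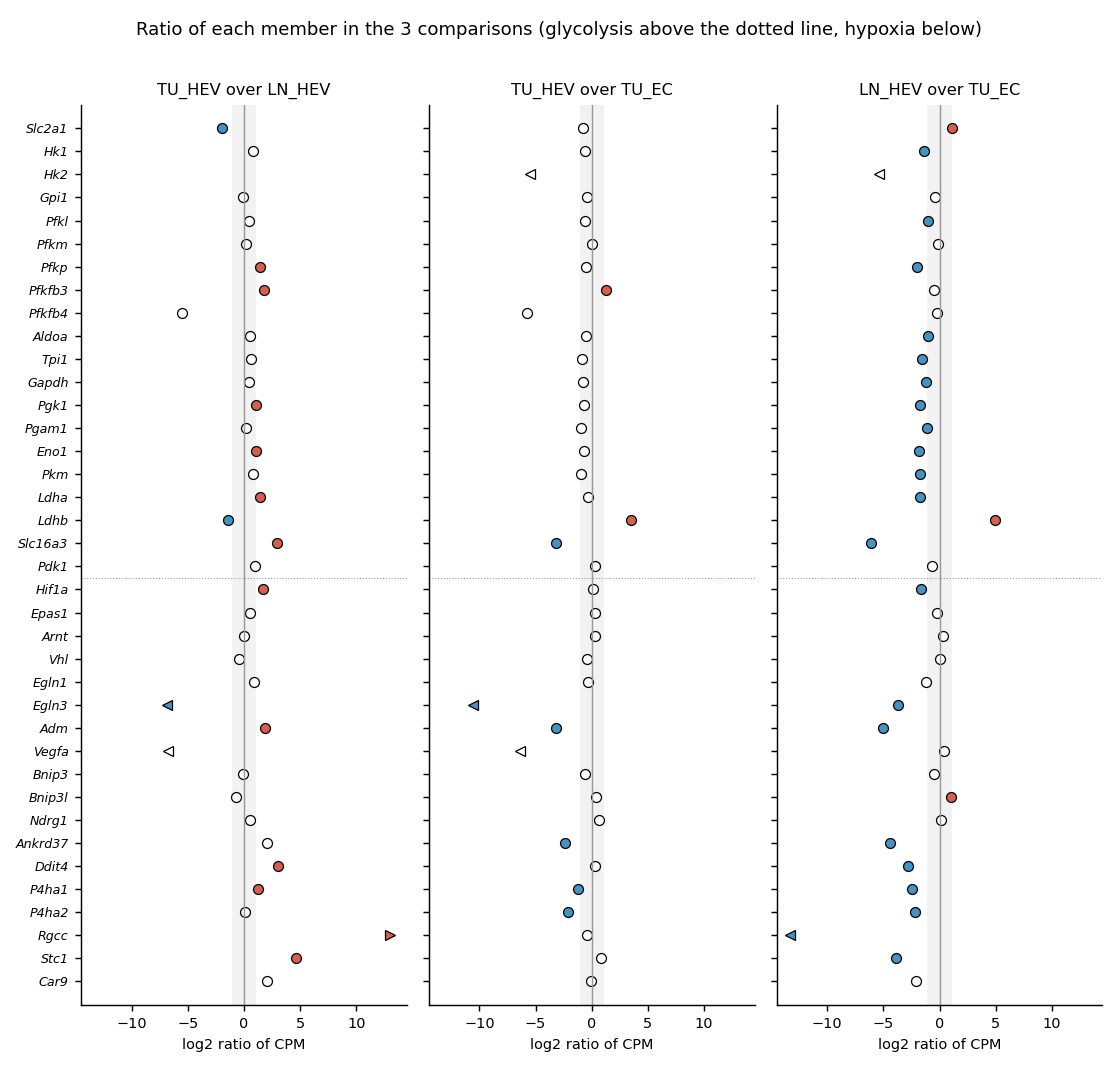
Log2 ratio of summed CPM for each member (rows) in TU_HEV against LN_HEV, TU_HEV against TU_EC and LN_HEV against TU_EC (panels). Red points are higher by the rule, blue points lower, white points neither, triangles are bounds where a group had 0 counts, and the grey band is a change under 2-fold. In the LN_HEV to TU_EC panel 21 of the members are blue.

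Glucose enters endothelial cells through GLUT1, the transporter made from Slc2a1 (chr4:119108711-119137983 on the plus strand of GRCm38, protein coding). Slc2a1 had 141.1 and 145.9 CPM on the TU_HEV plates, 539 and 566 CPM on the LN_HEV plates, and 401, 197.1, 205.3 and 230.5 CPM on the TU_EC plates. The transporter gene thus ran against the enzymes: it was highest in the lymph node cells, and no plates of TU_HEV overlapped those of either other group. It was 3.87-fold lower in TU_HEV than in LN_HEV (95% interval 3.81 to 3.94) and 1.77-fold lower than in TU_EC (1.74 to 1.80), which is under the 2-fold limit. LN_HEV was 2.19-fold higher than TU_EC (2.16 to 2.22), a difference that fell under 2-fold when the 11 pool1 libraries were kept. Genes of red cells and platelets summed to 570 CPM on pool1, 4107 CPM on pool2 and 7.12 CPM in TU_HEV. On pool1 nearly all of this was the platelet gene Pf4, at 569.5 CPM. The haemoglobin genes Hba-a1, Hba-a2 and Hbb-bs had 0.123, 0 and 0.0981 CPM there, and 1138, 1215 and 1273 CPM on pool2. The part of these genes in the Slc2a1 values was not tested. Per exon length (TPM), Slc2a1 was the second highest member in LN_HEV at 360.7 TPM, against 101.5 TPM in TU_HEV and 188.7 TPM in TU_EC.

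The 13 genes of the enzymes from hexokinase to pyruvate kinase gave the plainest order of the groups. Their sum was 3636 and 3546 CPM on the TU_HEV plates, 2325 and 2440 CPM on the LN_HEV plates, and 7336, 4989, 5180 and 6816 CPM on the TU_EC plates. The 3 groups did not overlap, with TU_HEV between the others. In TU_HEV all 13 had a ratio to TU_EC below 1, and 9 of them had no overlap of plates. Hk2, with no count in TU_HEV and set to the floor of 3 counts, was the only 1 of the 13 past 2-fold. The median log2 ratio was -0.68. In TU_HEV against LN_HEV 11 of the 12 with a ratio were above 1, and Pfkp, Pgk1 and Eno1 reached 2-fold. In LN_HEV against TU_EC 10 enzymes were lower (Hk1, Pfkl, Pfkp, Aldoa, Tpi1, Gapdh, Pgk1, Pgam1, Eno1 and Pkm), by 2.07-fold for Aldoa to 3.91-fold for Pfkp. Of these, Aldoa fell under 2-fold without pool2, poolA or poolD and Pfkl without poolA, and Pfkl, Aldoa, Gapdh and Pgam1 did with ribosomal RNA in the totals.

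Pkm, which makes pyruvate kinase and the last ATP of the pathway, had 991 and 950.5 CPM on the TU_HEV plates, 505 and 614 CPM on the LN_HEV plates, and 2326, 1628, 1594 and 2045 CPM on the TU_EC plates. It showed the same order as the sum, and LN_HEV was 3.25-fold lower than TU_EC (3.22 to 3.27). Pfkp, the platelet-type subunit of phosphofructokinase, had 151.8 and 102.5 CPM on the TU_HEV plates, 54.3 and 41.1 CPM on the LN_HEV plates, and 175.4, 122.9, 195.6 and 232.8 CPM on the TU_EC plates. TU_HEV overlapped TU_EC here and was 2.73-fold above LN_HEV (2.65 to 2.82). Pgk1, phosphoglycerate kinase, had 182.6 and 208.6 CPM on the TU_HEV plates, 90.6 and 98.7 CPM on the LN_HEV plates, and 402, 247.9, 314.9 and 310.4 CPM on the TU_EC plates. Eno1, enolase, had 339.3 and 329.7 CPM on the TU_HEV plates, 133.2 and 169.3 CPM on the LN_HEV plates, and 651, 427, 569 and 549 CPM on the TU_EC plates. Both lay just over the limit in TU_HEV against LN_HEV, at 2.05-fold (2.01 to 2.10) and 2.13-fold (2.09 to 2.17), and both fell below it without pool1, with the 11 pool1 libraries kept, with the 20 highest features out of the totals, with size factors, with cells weighted equally and on thinned counts, and Pgk1 also without pool4.

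Of the other enzymes, Aldoa (aldolase) was the highest member per length in every group, at 687 TPM in TU_HEV, 443 TPM in LN_HEV and 1047 TPM in TU_EC. Gpi1, the isomerase of glucose phosphate, had 327.6, 347.4 and 453 CPM in TU_HEV, LN_HEV and TU_EC. Hexokinase RNA was nearly all Hk1, at 82.5 CPM in TU_HEV, 49.0 in LN_HEV and 125.7 in TU_EC. Hk2, the inducible hexokinase, had no count in TU_HEV or LN_HEV and 1.03 CPM in TU_EC. With TU_HEV set to the floor, Hk2 was 45.7-fold lower there than in TU_EC (95% limit 36.7). With LN_HEV set to the floor, it was 40.9-fold lower there than in TU_EC (95% limit 32.9). All 5 cells with Hk2 after thinning were TU_EC cells, and 0 of 98 TU_HEV cells allows a share of up to 3.06%.

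Near-identical copies limit some of these values, since the deposited counts do not say how reads shared by copies were treated. Counts of features at least 97% identical to Gapdh made 73.9%, 71.8% and 71.5% of the sum with Gapdh in TU_HEV, LN_HEV and TU_EC, and for Eno1 59.1%, 59.5% and 58.3%. With the copies added, the log2 ratio of TU_HEV to LN_HEV was 0.53 for Gapdh and 1.08 for Eno1. The low level of Gapdh beside its neighbours in the pathway, 108.5 CPM in TU_HEV, 81.1 in LN_HEV and 184.1 in TU_EC, does not include those copies. Other genes overlap exons of some members: Gm45507 covers 22.3% of the exon bases of Bnip3, Gm49759 15.3% of Pkm and Gm26762 11.5% of Gpi1.

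Pfkfb3 (chr2:11471433-11554077, minus strand), whose product makes the strongest activator of phosphofructokinase, was the glycolysis member in which TU_HEV cells stood above both other groups with plates apart. It had 96.6 and 182.9 CPM on the TU_HEV plates, 56.4 and 32.9 CPM on the LN_HEV plates, and 60.0, 75.6, 70.1 and 19.6 CPM on the TU_EC plates. TU_HEV was 3.52-fold higher than LN_HEV (3.41 to 3.63) and 2.46-fold higher than TU_EC (2.398 to 2.522). The TU_EC comparison fell under 2-fold without pool4. Immediate early and heat shock genes, a sign of cell handling, summed to 7291 CPM in TU_HEV, 5560 in LN_HEV and 4999.7 in TU_EC, and their part in the Pfkfb3 values was not tested. Pfkfb4, its paralog, had 3 counts in TU_HEV (0.0226 CPM), 1.03 CPM in LN_HEV and 1.22 CPM in TU_EC.

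The genes of the fate of pyruvate follow. Ldha and Ldhb code for the subunits of lactate dehydrogenase, the A subunit favouring lactate formation and the B subunit the reverse reaction. Slc16a3 codes for MCT4, which exports lactate. The 3 promoters are shown because HIF acts through short response elements and these genes moved differently. They are RefSeq sequences (GRCm38.p6), 250 bases before to 50 after a transcript start, at chr7:46845554-46845853 on the plus strand for Ldha, chr6:142507908-142508207 on the minus strand for Ldhb and chr11:120948817-120949116 on the plus strand for Slc16a3. Capitals mark the core letters of a hypoxia response element, ACGTG or GCGTG, on either strand.
Ldha: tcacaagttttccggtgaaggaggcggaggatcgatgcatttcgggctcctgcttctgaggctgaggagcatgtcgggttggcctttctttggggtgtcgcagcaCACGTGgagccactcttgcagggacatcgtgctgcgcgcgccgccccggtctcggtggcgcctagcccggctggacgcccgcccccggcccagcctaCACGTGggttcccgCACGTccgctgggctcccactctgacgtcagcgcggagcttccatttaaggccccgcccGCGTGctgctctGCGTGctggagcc
Ldhb: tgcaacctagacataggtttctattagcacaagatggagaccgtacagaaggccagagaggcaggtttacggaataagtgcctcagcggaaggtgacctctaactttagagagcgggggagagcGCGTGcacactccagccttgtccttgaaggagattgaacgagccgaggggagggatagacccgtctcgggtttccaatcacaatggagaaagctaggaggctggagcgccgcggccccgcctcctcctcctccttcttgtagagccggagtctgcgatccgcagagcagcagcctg
Slc16a3: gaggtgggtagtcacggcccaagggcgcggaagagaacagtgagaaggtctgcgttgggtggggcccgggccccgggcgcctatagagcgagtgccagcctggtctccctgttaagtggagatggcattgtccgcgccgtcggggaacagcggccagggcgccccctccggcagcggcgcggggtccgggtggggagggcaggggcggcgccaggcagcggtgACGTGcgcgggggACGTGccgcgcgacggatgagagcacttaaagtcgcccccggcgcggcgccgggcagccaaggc
Counted on both strands, with overlaps, the Ldha window held 7 matches, that of Ldhb 1 and that of Slc16a3 2. Ldha has a second RefSeq window (chr7:46846832-46847131), not shown, with 2 matches. RefSeq windows were found for 34 of 38 members, and 31 of these (91.2%) held either motif, against 46.7% of 27025 genes. ACGTG alone was in 22 of 34 (64.7%), against 21.8% of all genes. A match is a run of letters and not a shown binding site, and many of these genes are known as HIF targets.

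Ldha (chr7:46841475-46855627, plus strand) had 899 and 876 CPM on the TU_HEV plates, 316.5 and 342.5 CPM on the LN_HEV plates, and 1286, 954, 1037 and 1108 CPM on the TU_EC plates. TU_HEV was close to the tumour cells without MECA-79, 1.23-fold lower (1.22 to 1.24), and 2.66-fold above LN_HEV (2.63 to 2.69). Ldhb (chr6:142490249-142507957, minus strand) had 47.4 and 17.3 CPM on the TU_HEV plates, 93.2 and 79.4 CPM on the LN_HEV plates, and 0, 1.15, 2.15 and 8.73 CPM on the TU_EC plates. The order was the reverse of Ldha, with no overlap of the groups. TU_HEV was 2.72-fold lower than LN_HEV (2.63 to 2.82) and 11.2-fold higher than TU_EC (10.1 to 12.4), and LN_HEV was 30.5-fold higher than TU_EC (27.6 to 33.7). Few cells carried these values in the tumour: after thinning, Ldhb was counted in 7.14% of TU_HEV cells (7 cells), 39.7% of LN_HEV cells (56) and 1.35% of TU_EC cells (4). The log2 ratio of TU_HEV to LN_HEV was -2.28 without pool3 and -0.83, under 2-fold, without pool4, and that of TU_HEV to TU_EC was 2.65, 4.10 and 4.73 without pool3, pool4 and poolD. LN_HEV to TU_EC was 6.18 without poolD.

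Set against each other per length, Ldhb made 6.85% of the sum of Ldha and Ldhb in TU_HEV, 34.7% in LN_HEV and 0.532% in TU_EC. By plate these shares were 10.0% and 4.00% in TU_HEV, 38.3% and 32.8% in LN_HEV, and 0%, 0.253%, 0.436% and 1.63% in TU_EC. The subunit share was thus higher in the lymph node cells on every plate.

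Slc16a3 (chr11:120948480-120960868, plus strand) had 4.22 and 12.2 CPM on the TU_HEV plates, 0 and 1.71 CPM on the LN_HEV plates, and 147.7, 55.6, 50.4 and 63.8 CPM on the TU_EC plates. The groups did not overlap. TU_HEV was 7.68-fold higher than LN_HEV (6.41 to 9.26) and 9.01-fold lower than TU_EC (8.48 to 9.59), and LN_HEV was 69.2-fold lower than TU_EC (58.3 to 82.8). These folds rest on 5 TU_HEV cells and 1 LN_HEV cell after thinning, against 88 TU_EC cells. The log2 ratio of TU_HEV to LN_HEV ranged over plates left out, with 1.91 without pool4, 2.33 without pool1 and a bound of 6.87 without pool2; that of TU_HEV to TU_EC was -4.20 without pool4, and that of LN_HEV to TU_EC was -5.51 without pool1 and a bound of -10.04 without pool2. Pdk1, whose kinase keeps pyruvate out of the mitochondrial oxidation path, had 11.2 and 53.2 CPM on the TU_HEV plates, 6.94 and 23.0 CPM on the LN_HEV plates, and 29.8, 27.3, 15.2 and 44.3 CPM on the TU_EC plates. All 3 groups overlapped for Pdk1.

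**Figure D2:**
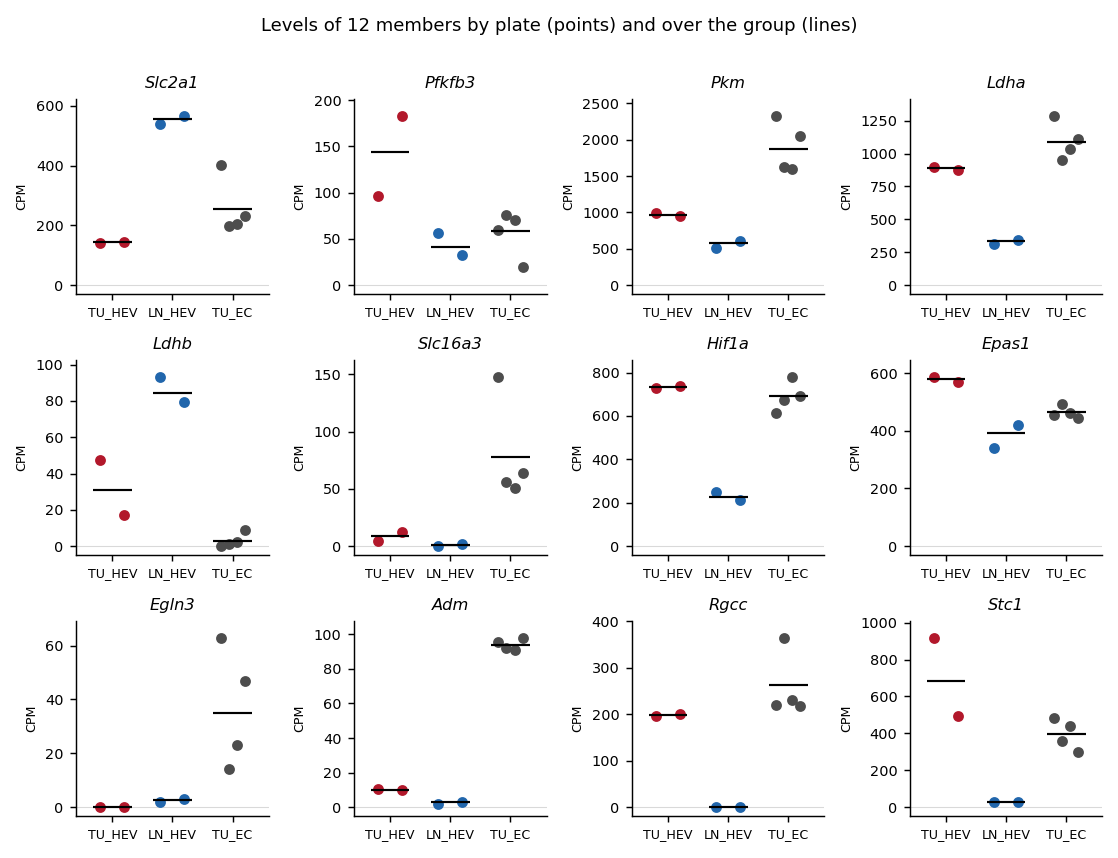
CPM of 12 members (panels) in TU_HEV, LN_HEV and TU_EC, with a point for each plate and a line for the group. Slc2a1 and Ldhb are highest in LN_HEV, while Slc16a3, Egln3 and Adm are highest in TU_EC and Pfkfb3 in TU_HEV.

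Other families shifted too. Per length, Pfkp made 24.0% of phosphofructokinase RNA in TU_HEV, 13.3% in LN_HEV and 24.0% in TU_EC, and the LN_HEV plates lay below all others. Egln3 made 0%, 23.2% and 63.0% of its sum with Egln1 in the same order of groups. Bnip3l made 76.7% of its sum with Bnip3 in TU_HEV, 82.9% in LN_HEV and 62.1% in TU_EC, with TU_EC plates from 48.4% to 80.0%. P4ha2 made 9.21%, 18.3% and 15.8% of its sum with P4ha1, and the plates of TU_HEV and TU_EC overlapped.

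**Figure D3:**
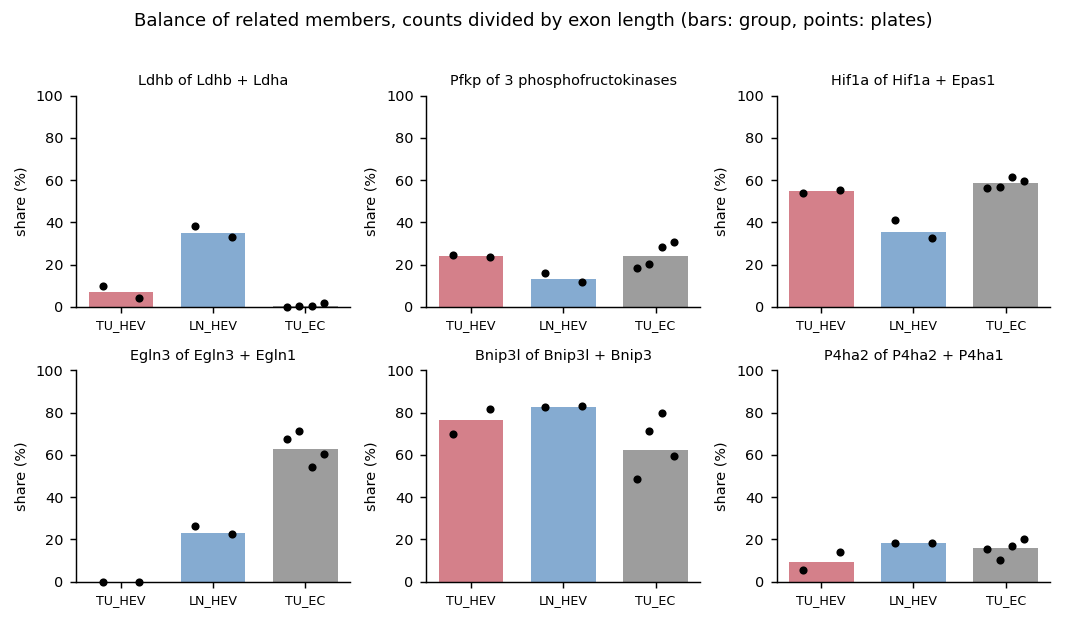
Share of 1 gene in the sum with its paralogs, in percent from counts per exon length, for pairs and trios of members, with bars for TU_HEV, LN_HEV and TU_EC and points for plates. Ldhb makes 34.7% of lactate dehydrogenase RNA in LN_HEV, against 6.85% in TU_HEV and 0.532% in TU_EC.

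Among the HIF subunits, Hif1a differed between the tissues and Epas1, which makes HIF-2alpha, much less. Hif1a (chr12:73901375-73947530, plus strand) had 729 and 738 CPM on the TU_HEV plates, 250.3 and 213.1 CPM on the LN_HEV plates, and 613, 676, 780.0 and 689.6 CPM on the TU_EC plates. Both tumour groups stood above the lymph node cells and overlapped each other. TU_HEV was 3.25-fold higher than LN_HEV (3.21 to 3.29) and within 1.06-fold of TU_EC (1.05 to 1.07), and LN_HEV was 3.07-fold lower than TU_EC (3.03 to 3.11). Epas1 (chr17:86753700-86833410, plus strand) had 587 and 571 CPM on the TU_HEV plates, 341.3 and 419 CPM on the LN_HEV plates, and 454, 492, 461 and 443 CPM on the TU_EC plates. TU_HEV was highest on every plate, but only by 1.47-fold over LN_HEV and 1.25-fold over TU_EC. Per length, Hif1a made 54.6% of the sum of Hif1a and Epas1 in TU_HEV, 35.3% in LN_HEV and 58.6% in TU_EC.

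Arnt, the shared partner, had 42.1 CPM in TU_HEV, 42.8 in LN_HEV and 33.6 in TU_EC. Vhl had 18.0, 24.9 and 24.5 CPM in the same order. Neither differed by 2-fold between any groups. Egln1, the main oxygen sensor among the hydroxylases, had 21.4, 11.9 and 27.8 CPM; its TU_HEV plates lay above those of LN_HEV, at under 2-fold, and within the range of TU_EC.

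Egln3 codes for the hydroxylase that HIF itself induces strongly. It had no count on either TU_HEV plate, 1.91 and 3.05 CPM on the LN_HEV plates, and 62.9, 14.1, 23.2 and 46.9 CPM on the TU_EC plates. After thinning, both MECA-79-positive groups were low, with 0 of 98 TU_HEV cells and 1.42% of LN_HEV cells (2), against 12.1% of TU_EC cells (36). A floor of 3 TU_HEV cells would be a share of 3.06%, which is not an exact 95% limit. With 0 set to the floor of 3 counts, TU_HEV was 1548-fold lower than TU_EC and 117.6-fold lower than LN_HEV (95% limit 95.1). On thinned counts these log2 ratios were -5.65 and -1.98. LN_HEV was 13.2-fold lower than TU_EC (11.8 to 14.8). The TU_HEV value rests on the filters for endothelial cells and contaminants: with the cells it left out, the log2 ratio was -0.29 to LN_HEV and -4.16 to TU_EC. Without a plate the bounds were -6.01 (pool3) and -5.73 (pool4) to LN_HEV.

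Of the 12 responsive genes, Stc1, Rgcc, Ddit4, Bnip3, Bnip3l and Ndrg1 in TU_HEV were within 2-fold of TU_EC, Adm, Ankrd37, P4ha1 and P4ha2 were lower in TU_HEV, and Vegfa and Car9 were too low to be counted. The grouping was made after the values were seen. Promoters of Adm, Ankrd37 and Egln3, which were low in TU_HEV, are shown for their response element cores. They lie at chr7:110627407-110627706 on the plus strand for Adm, chr8:45999801-46000100 on the minus strand for Ankrd37 and chr12:54203825-54204124 on the minus strand for Egln3, with capitals as above.
Adm: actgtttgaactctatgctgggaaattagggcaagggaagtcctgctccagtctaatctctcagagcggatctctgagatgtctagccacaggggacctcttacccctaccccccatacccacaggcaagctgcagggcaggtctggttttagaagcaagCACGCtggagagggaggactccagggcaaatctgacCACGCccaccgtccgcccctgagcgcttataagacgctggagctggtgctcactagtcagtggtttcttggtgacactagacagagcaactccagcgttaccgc
Ankrd37: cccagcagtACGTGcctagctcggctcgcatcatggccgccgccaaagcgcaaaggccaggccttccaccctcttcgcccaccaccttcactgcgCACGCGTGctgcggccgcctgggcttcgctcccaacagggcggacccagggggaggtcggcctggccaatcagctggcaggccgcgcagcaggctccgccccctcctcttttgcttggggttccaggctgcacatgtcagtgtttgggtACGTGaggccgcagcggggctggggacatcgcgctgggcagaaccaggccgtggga
Egln3: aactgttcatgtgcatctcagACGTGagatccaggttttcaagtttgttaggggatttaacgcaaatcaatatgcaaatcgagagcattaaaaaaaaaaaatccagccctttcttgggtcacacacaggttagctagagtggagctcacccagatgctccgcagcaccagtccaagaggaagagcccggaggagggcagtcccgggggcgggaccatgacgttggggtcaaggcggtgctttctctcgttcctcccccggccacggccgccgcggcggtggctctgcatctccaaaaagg
The windows held 2, 4 and 1 matches. The Adm and Egln3 windows thus had no more cores than that of Slc16a3. Ankrd37 had fewer than the Ldha window shown but more than the second Ldha window, which had 2.

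Stc1 (chr14:69029238-69041804, plus strand), which codes for the glycoprotein stanniocalcin, had 918 and 493 CPM on the TU_HEV plates, 29.2 and 27.0 CPM on the LN_HEV plates, and 481, 358.4, 438 and 296.5 CPM on the TU_EC plates. TU_HEV lay above every TU_EC plate, though under 2-fold, and 24.7-fold above LN_HEV (23.8 to 25.5). LN_HEV was 14.3-fold lower than TU_EC (13.8 to 14.8). With the 11 pool1 libraries kept, the log2 ratios were 2.29 for TU_HEV to LN_HEV and -1.50 for LN_HEV to TU_EC. Rgcc (chr14:79288756-79301645, minus strand), a cell cycle regulator known as a capillary gene, had 197.3 and 200.8 CPM on the TU_HEV plates, no count on the LN_HEV plates, and 220.5, 364.6, 231.3 and 217.8 CPM on the TU_EC plates. No LN_HEV cell had a count, which allows a share of up to 2.13%, and after thinning 29.6% of TU_HEV cells (29) and 46.1% of TU_EC cells did. With LN_HEV set to the floor, TU_HEV was 7885-fold higher than LN_HEV (95% limit 6412), and LN_HEV was 10393-fold lower than TU_EC. With the 11 libraries kept, the log2 ratios were 3.62 and -4.02, and without the filters for cell type 8.21 and -8.64. Capillary genes summed to 7654 CPM in TU_HEV, 1051 in LN_HEV and 2868 in TU_EC, and their part in the Rgcc values was not tested.

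Ddit4, which codes for an inhibitor of the growth kinase complex mTORC1, had 17.5 and 21.2 CPM on the TU_HEV plates, 1.84 and 2.64 CPM on the LN_HEV plates, and 17.7, 11.4, 24.9 and 8.70 CPM on the TU_EC plates. The tumour groups overlapped, and TU_HEV was 8.24-fold above LN_HEV (7.28 to 9.35). LN_HEV was 6.79-fold lower than TU_EC (6.00 to 7.71). With the 11 pool1 libraries kept, the log2 ratios were 1.48 and -1.20, and the second was no longer counted.

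Adm (chr7:110627661-110629820, plus strand), which codes for the vasodilator peptide adrenomedullin, had 10.4 and 9.63 CPM on the TU_HEV plates, 2.08 and 3.21 CPM on the LN_HEV plates, and 95.3, 92.1, 90.7 and 97.998 CPM on the TU_EC plates. Plates of a group lay close together, but few cells of TU_HEV and LN_HEV held Adm. TU_HEV was 3.54-fold higher than LN_HEV (3.14 to 4.00) and 9.39-fold lower than TU_EC (8.87 to 9.94), and LN_HEV was 33.2-fold lower than TU_EC (29.8 to 37.1). The TU_HEV sum came from 4 cells after thinning, and the log2 ratio to TU_EC was -2.54 without the filters for cell type, -4.17 on thinned counts and -3.87 with cells weighted equally. On thinned counts the log2 ratio to LN_HEV was 1.18. Ankrd37, an ankyrin repeat gene known to be induced by HIF, had 3.06 and 14.3 CPM on the TU_HEV plates, 0 and 3.41 CPM on the LN_HEV plates, and 47.1, 41.3, 48.7 and 51.8 CPM on the TU_EC plates. TU_HEV was 5.07-fold lower than TU_EC (4.77 to 5.39) and overlapped LN_HEV, which was 20.9-fold lower than TU_EC (18.5 to 23.8). Its log2 ratio of TU_HEV to TU_EC was -1.71 without pool3 and -3.94 without pool4, and that of LN_HEV to TU_EC was -3.78 without pool1 and a bound of -9.32 without pool2. The gene Lrp2bp overlaps 22.7% of the Ankrd37 exons on the opposite strand, and the strand setting of the counting is not given in the sources used here.

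P4ha1 and P4ha2 code for the catalytic subunits of collagen prolyl hydroxylase, an enzyme of the matrix. P4ha1 had 73.8 and 45.0 CPM on the TU_HEV plates, 19.8 and 27.0 CPM on the LN_HEV plates, and 154.8, 113.9, 122.9 and 145.4 CPM on the TU_EC plates. TU_HEV was 2.37-fold higher than LN_HEV (2.27 to 2.47), a difference under 2-fold without pool3, and 2.29-fold lower than TU_EC (2.23 to 2.35), one under 2-fold without pool4; LN_HEV was 5.42-fold lower than TU_EC (5.21 to 5.63). P4ha2 had 6.47 and 10.9 CPM on the TU_HEV plates, 6.77 and 9.13 CPM on the LN_HEV plates, and 42.7, 19.5, 38.0 and 56.2 CPM on the TU_EC plates. Both MECA-79-positive groups were alike for P4ha2 in that their plates overlapped, 4.24-fold (3.99 to 4.52) and 4.55-fold (4.25 to 4.87) below TU_EC.

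In TU_HEV the mitophagy receptor genes Bnip3l and Bnip3 and the stress gene Ndrg1 were within 2-fold of LN_HEV as well as of TU_EC. Bnip3l (chr14:66985239-67008877, minus strand) had 187.2 and 244.998 CPM on the TU_HEV plates, 341.4 and 358.4 CPM on the LN_HEV plates, and 189.04, 115.1, 171.8 and 219.2 CPM on the TU_EC plates. LN_HEV was highest and 2.07-fold above TU_EC (2.04 to 2.10), a difference under 2-fold with the 11 pool1 libraries kept or without poolB. Bnip3, its paralog, had 39.1, 42.7 and 60.9 CPM in TU_HEV, LN_HEV and TU_EC, and its TU_EC plates ranged over 25.2 to 118.2 CPM, on both sides of the other groups. Ndrg1 had 398 and 483 CPM on the TU_HEV plates, 220.9 and 352.5 CPM on the LN_HEV plates, and 283.9, 179.5, 354.8 and 332.04 CPM on the TU_EC plates, so TU_HEV was highest on every plate, at under 2-fold. Vegfa, the main angiogenic factor of the HIF response, had no count in TU_HEV, 2.50 CPM in LN_HEV and 1.86 CPM in TU_EC. Car9, a carbonic anhydrase gene used as a marker of hypoxia, had 5.01, 1.25 and 5.35 CPM, from 3, 2 and 7 cells after thinning. At these levels no order was read for Vegfa or Car9.

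Shares of cells with a count separate how many cells held an RNA from how much they held. All cells were thinned to 50000 counts. Slc2a1 was counted in 40.8% of TU_HEV cells (exact binomial 95% interval 31.0 to 51.2), 78.0% of LN_HEV cells (70.3 to 84.5) and 51.9% of TU_EC cells (46.0 to 57.7). Hif1a was counted in 87.8%, 70.2% and 82.8% of cells in that order, and Ldha in 86.7%, 73.8% and 87.5%. Most cells of every group thus held Hif1a and Ldha, and the group difference lay more in the level: the cells with Hif1a had a median of 690 CPM in TU_HEV, 270.4 in LN_HEV and 620 in TU_EC. Rare members were the opposite, with Slc16a3 in 5.10%, 0.709% and 29.6% of cells and Ankrd37 in 4.08%, 3.55% and 24.6%. Stc1 was counted in 56.1% of TU_HEV, 19.9% of LN_HEV and 52.9% of TU_EC cells. Ddit4 was in 34.7%, 6.38% and 30.3% of thinned cells, and in 55.1%, 16.3% and 41.4% of cells before thinning. Before thinning, Slc2a1 was counted in 44.9%, 83.0% and 54.9% of cells, so the order held there too.

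**Figure D4:**
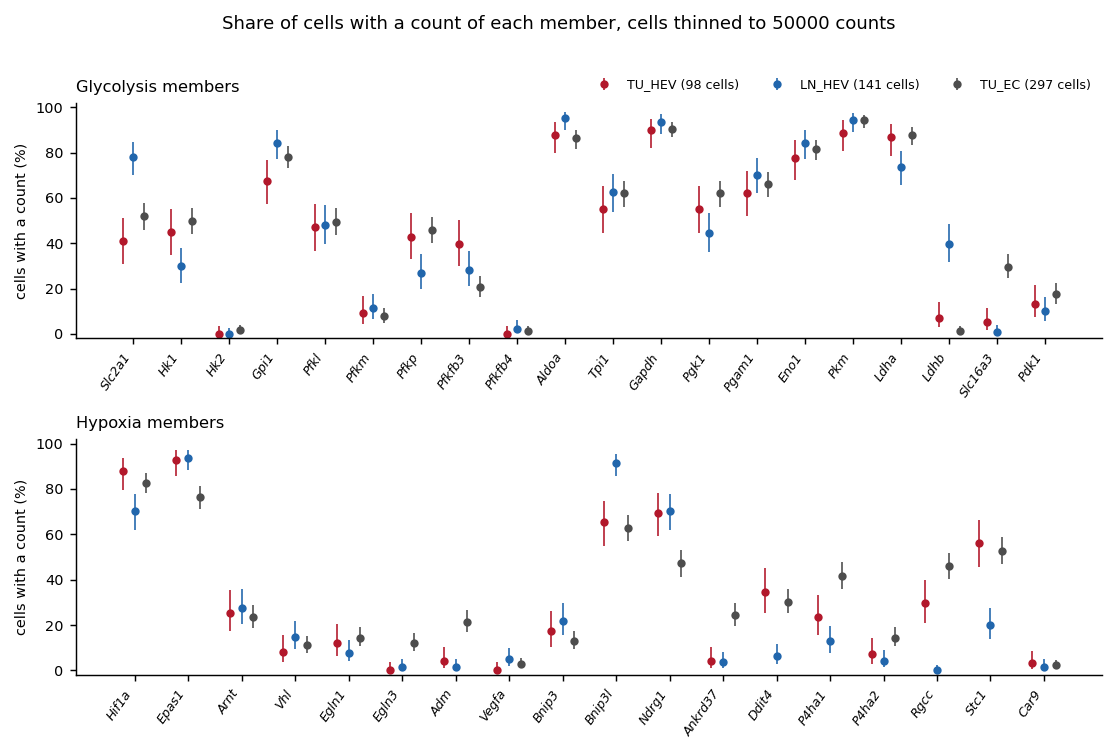
Percent of cells with a count of each member after thinning every cell to 50000 counts, for TU_HEV, LN_HEV and TU_EC cells, with exact binomial 95% intervals. LN_HEV has the highest share for Slc2a1 and Ldhb, and TU_EC for Slc16a3, Egln3, Adm and Ankrd37.

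Some pairs of glycolysis genes varied together from cell to cell in the tumour groups. Spearman coefficients were computed within each plate on thinned counts, over members found in at least 30% of the cells of a group; the cells of a plate share depth and library handling, and no p-value is given. In TU_HEV the pair Tpi1 and Ldha had coefficients of 0.56 and 0.59 on the 2 plates (50 and 48 cells), and Aldoa with Ldha 0.40 and 0.52. In TU_EC, Eno1 with Ldha had 0.51 to 0.55 and Aldoa with Pkm 0.44 to 0.67 over the 4 plates (66 to 80 cells each). Pairs above 0.3 on every plate numbered 12 of 190 in TU_HEV, 0 of 120 in LN_HEV and 28 of 210 in TU_EC, or 6.32%, 0% and 13.3%. Among pairs of all genes found in as many cells the shares were 0.387%, 0.0222% and 0.276%, with no matching of the genes on level. Most pairs of members were thus not above 0.3 on every plate, and the median coefficient over pairs of members was 0.14, 0.04 and 0.19, beside 0.04, 0.01 and 0.08 over all pairs. The highest pair of LN_HEV, Gpi1 with Ndrg1, had 0.20 and 0.28, which in sparse counts is no finding.

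Within TU_EC the genes low in TU_HEV were found in part of the cells. Tip cell genes (Esm1, Apln, Kcne3, Angpt2, Nid2, Cxcr4 and Dll4), which mark the leading cells of sprouts, summed to 946 CPM in TU_HEV, 218.6 in LN_HEV and 4145 in TU_EC, and their part in the differences from TU_EC was not tested. Most TU_EC cells held at least 3 of the 7 at 10 CPM and 82 did not; 37 cells were at the limit and 28 were 1 gene short of it. The median total was 449993 counts in the cells with tip genes and 375698 in the rest. Of the 33 members with at least 10 CPM in TU_EC, 18 were higher in the tip-gene cells on all 4 plates and 1 (Ndrg1) was lower on all 4, or 54.5% and 3.03%. Of all genes at that level, tip cell genes aside, 13.2% were higher and 9.54% lower on all 4 plates. The part of depth in these counts was not tested. Ankrd37 had 61.3 CPM in tip-gene cells and 6.21 CPM in the rest, Slc16a3 96.9 and 22.7 CPM, and Egln3 44.6 and 7.96 CPM. Slc2a1 had 302.1 and 119.5 CPM, Rgcc 311.6 and 123.7 CPM and Pfkfb3 68.8 and 29.7 CPM. These were among the 18. Hif1a was not, with 665 CPM in tip-gene cells and 771 CPM in the rest, and Ndrg1 had 211.1 and 495 CPM. Ldhb had no count in the tip-gene cells and 10.6 CPM in the rest.

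**Figure D5:**
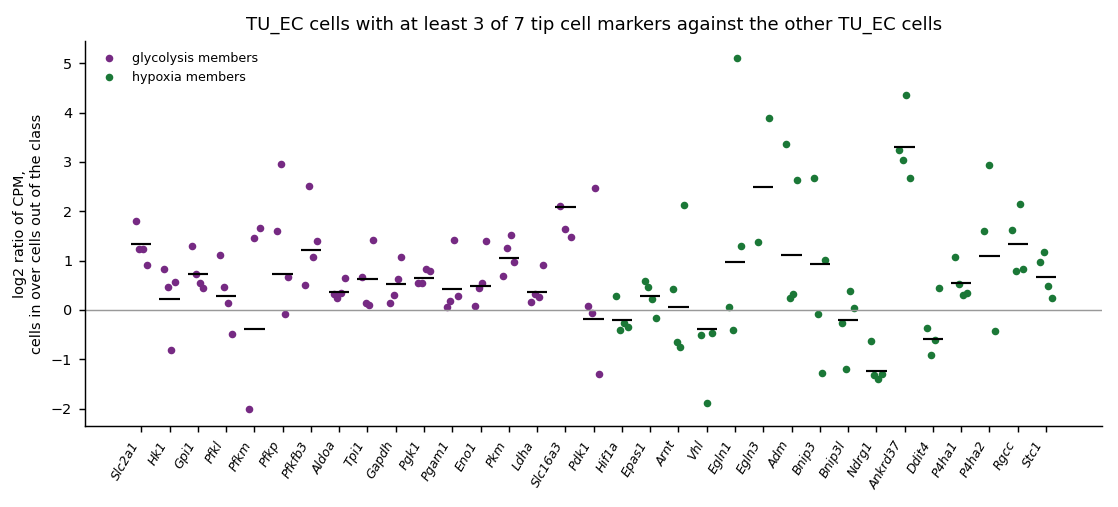
Log2 ratio of CPM in TU_EC cells with at least 3 of 7 tip cell genes to the other 82 TU_EC cells, for the 33 members with at least 10 CPM in TU_EC. Points are plates and bars the group; a plate with 0 CPM on one side is not drawn. The ratio of Ankrd37 is highest among the bars, and that of Ndrg1 lies below 0 on all 4 plates.

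Members also differed in TU_EC cells with division or venous genes. The 31 cells with at least 3 of 7 division genes had higher Ldha, Eno1 and Pgk1 than the other TU_EC cells on all 4 plates, with 1608 against 987 CPM for Ldha and 769 against 501 CPM for Eno1. The same cells had 5.71 against 110.8 CPM of Adm and 1.38 against 72.5 CPM of Bnip3. Ldha, Eno1 and Pgk1 were the only members of the 33 higher on all 4 plates, while 12 were lower on all 4, Aldoa and Egln3 among them, or 9.09% and 36.4%. Of all genes at that level, division genes aside, 13.5% were higher and 16.8% lower on all 4 plates. The median total was 780585 counts in the cells with division genes and 391793 in the rest, and the part of depth was not tested; 9 cells were at the limit and 10 were 1 gene short. The 39 cells with at least 3 of 6 venous genes (11 at the limit and 31 more 1 gene short) had a median total of 583141 counts, against 414360 in the rest. They had 1134 against 607 CPM of Hif1a, higher on all 4 plates, and 148.1 against 275.1 CPM of Slc2a1, lower on all 4. Of the 33 members, 1 (Hif1a) was higher and 8 were lower on all 4 plates, and no share over all genes was computed for this class.

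Within TU_HEV, Rgcc was lower in the cells with venous or high endothelial genes, and Adm, found in few cells, had no count in them. In the 72 cells with at least 3 of 6 venous genes Rgcc had 24.0 CPM, against 774 CPM in the other 26, and it was lower on both plates. Of these cells 6 were at the limit and 9 others were 1 gene short, and the median total was 1416745 counts, against 1096436 in the 26. Adm had no count in the 72 cells and 42.7 CPM in the 26, while Ldha had 965 and 627 CPM and Hif1a 777 and 593 CPM. Pfkfb3 had 107.6 CPM in the cells with venous genes and 263.4 CPM in the rest. Pfkfb3, for which the whole group stood highest, was thus higher outside the venous class on both plates. In the 31 cells with at least 3 of 5 high endothelial genes Rgcc had 32.9 CPM, against 299.1 CPM in the other 67, Stc1 had 464 and 817 CPM, and Bnip3l 290.1 and 176.2 CPM. All 3 held on both plates. Of the 29 members with at least 10 CPM in TU_HEV, 9 were higher and 9 lower in this class on both plates. In the venous class 6 were higher and 8 lower. With only 2 plates, agreement in direction is a weak rule. No share over all genes was computed for either class. Of the 31 cells 21 were at the limit, 31 others were 1 gene short, and the median total was 1569747 counts, against 1135336 in the 67; the part of depth was not tested. Ackr1 is in the venous and the high endothelial list, so these classes overlap.

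Members lower in TU_HEV than in TU_EC were counted more often in TU_EC cells that held another of them. Slc16a3, Egln3, Adm, Ankrd37, P4ha1 and P4ha2 were set side by side after their values were seen. After thinning, 2 or more of them were counted in 36.4% of TU_EC cells. That share was not set against the one expected from the shares of the single genes, so it does not show overlap by itself. In the 36 TU_EC cells with Egln3, Adm was counted in 58.3%, against 16.5% of the cells without Egln3, and Ankrd37 in 66.7% against 18.8%. Cells with Slc16a3 held Adm in 40.9% of cases, against 13.4% of those without. The share was higher on all 4 plates for every pair but Adm with P4ha2, where it was higher on 3. The genes were picked for being higher in TU_EC, and no share over pairs of other genes was computed, so these values are description only. The part of tip-gene cells in this was not tested.

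Other genes of the pathways were taken from lists that hold no member. Of 24 other glucose and glycolysis genes with at least 5 CPM (39 listed), 5 were higher and 3 lower in TU_HEV than in LN_HEV, and 5 higher and 0 lower than in TU_EC. The shares against LN_HEV, 20.8% and 12.5%, lay near the 16.7% and 9.54% of all genes, and those against TU_EC were 20.8% and 0%, where all genes had 8.12% and 8.84%. The median log2 ratio of these genes was -0.14 to LN_HEV and -0.14 to TU_EC. Slc16a1, the other lactate transporter (MCT1), had 91.0 and 83.5 CPM on the TU_HEV plates and 27.9, 0.335, 4.19 and 4.99 CPM on the TU_EC plates, 9.78-fold higher in TU_HEV (9.24 to 10.4). That was the reverse of Slc16a3. Slc2a3, a glucose transporter gene, was 6.83-fold higher in TU_HEV than in TU_EC, at 23.4 against 3.43 CPM. Pdk4, a kinase that blocks pyruvate oxidation, had 9.74 CPM in TU_HEV, 65.3 CPM in LN_HEV and 1.61 CPM in TU_EC. The LN_HEV level was 40.5-fold above that of TU_EC (35.6 to 46.1). Slc2a6 had 34.7 CPM in TU_HEV against 1.98 CPM in LN_HEV, and Slc2a12 1.34 against 15.5 CPM. LN_HEV had 6 of the 24 higher and 1 lower than TU_EC, or 25.0% and 4.17%, where all genes had 9.62% and 17.5%.

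Of 38 other HIF pathway and hypoxia genes (49 listed), 18 were higher and 3 lower in TU_HEV than in LN_HEV, 2 higher and 11 lower than in TU_EC, and LN_HEV had 2 higher and 17 lower than TU_EC. These are 47.4% and 7.89%, where all genes had 16.7% and 9.54%, then 5.26% and 28.9%, where all genes had 8.12% and 8.84%, and 5.26% and 44.7%, where all genes had 9.62% and 17.5%. Igfbp3, which binds insulin-like growth factors, had 278.7 and 1215 CPM on the TU_HEV plates, 15.6 and 10.4 CPM on the LN_HEV plates, and 7705, 9090, 7120 and 7189 CPM on the TU_EC plates. TU_HEV was 64.9-fold above LN_HEV and 9.86-fold below TU_EC, and the TU_HEV plates differed from each other by several fold. Edn1, which codes for the vasoconstrictor endothelin, had 70.5 CPM in TU_HEV, 1.88 CPM in LN_HEV and 51.2 CPM in TU_EC. Tfrc, the transferrin receptor gene, had 12.2 CPM in TU_HEV and no count in LN_HEV, 482-fold higher in TU_HEV with 0 set to the floor of 3 counts. Cited2, an antagonist of HIF, was 7.26-fold higher in TU_HEV than in LN_HEV, at 47.6 against 6.55 CPM. Anln, a gene of cell division, was 44.4-fold lower in TU_HEV than in TU_EC, and Gys1, glycogen synthase, 5.63-fold lower. Vegfc, the lymphatic growth factor gene, was 33.5-fold lower in LN_HEV than in TU_EC. Of 10 genes of the pentose phosphate and serine branches, 2 were higher and 1 lower in TU_HEV than in LN_HEV, 1 higher and 0 lower than in TU_EC, and LN_HEV had 1 higher and 1 lower than TU_EC. With 10 genes, 20% and 10% against LN_HEV lay near the shares of all genes.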

How the data were processed

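Endothelial cells sorted singly from PyMT tumour and lymph node were analysed. The authors deposited raw read counts of every gene in each cell; the submitters' processing notes name FastQC 0.11.4, STAR 2.4.1b, Subread 1.4.6-p2 and mm10 (GRCm38). No source used here gives the annotation or strand setting.

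Symbols repeated in the 51826 rows (92) were summed. Cells were kept with at least 50000 counts without CT010467.1 and AY036118, at least 1000 genes, at most 30% mitochondrial counts, at least 2 of 5 endothelial genes at 10 CPM and fewer than 3 of 6 genes of the lists of leukocyte, epithelial or tumour, and mural or fibroblast genes. Doublets were not called, since wells received sorted single cells. Of 96 wells per plate, 73, 31 and 43 in all had under 50000 counts in TU_HEV, LN_HEV and TU_EC. Counts were summed per group and plate; 3 counts, or 0.0226, 0.0253 and 0.0198 CPM, were the floor for a group at 0. CPM and TPM (exon lengths of GENCODE release M21, which matched 47624 symbols, 92.1%) and exact Clopper-Pearson intervals were computed from the deposited counts with Python 3.11.15, numpy 2.4.6, pandas 2.3.3, scipy 1.17.1 and matplotlib 3.10.9, and the scripts were tested on simulated data. Promoters are from RefSeq. Reads were single ends of 75 bases from libraries of 23 PCR cycles.

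Members and lists were chosen with earlier results of these data known. Members counted as higher or lower and a fixed list of others are described in full, and at most 6 other pathway genes per comparison by size of ratio. Alternatives covered scaling, filters, plates left out, the 2-fold limit and thinning. Leaving out 3 more pool1 libraries and adding near-identical copies were chosen after seeing the data.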

Additional observations from a re-analysis of the deposited data

How the results depend on the processing

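All values carry counting error only, and each group is 1 sample. Depth limits the members found in a few cells, such as Slc16a3, Egln3, Adm, Vegfa, Car9 and Hk2. No paired analysis was possible because the labels give no replicate numbers shared between groups and no result comes from a test. The cause of the changes below was not tested, except where they follow from the setting itself.

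With the 11 pool1 libraries kept, the glycolysis median of TU_HEV to LN_HEV was 0.56, the hypoxia median of LN_HEV to TU_EC was -1.35, and 1 member instead of 3 was higher in LN_HEV than in TU_EC. With ribosomal RNA in the totals, the glycolysis medians were 0.77 (TU_HEV to LN_HEV), -0.24 (TU_HEV to TU_EC) and -0.88 (LN_HEV to TU_EC), 4 members (with Ndrg1 and Stc1) were higher in TU_HEV than in TU_EC, and the hypoxia median of that pair changed sign to 0.0114. Thinned counts gave 0.0119 there, and equal weight of cells -0.11. The glycolysis median of TU_HEV to LN_HEV was 0.44 without the 20 highest features in the totals and 0.48 with size factors. A limit of 1.5-fold gave 4 members higher and 14 lower in TU_HEV than in TU_EC.

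Leaving out 1 plate at a time gave 10 to 17 members higher and 3 to 3 lower for TU_HEV against LN_HEV, with medians of 0.56 to 0.61 (glycolysis) and 0.41 to 0.89 (hypoxia). For TU_HEV against TU_EC it gave 2 to 2 higher and 6 to 9 lower, with medians of -0.76 to -0.53 and -0.44 to -0.18. For LN_HEV against TU_EC it gave 2 to 3 higher and 19 to 22 lower, with medians of -1.39 to -1.07 and -1.90 to -1.70. No log2 ratio that passed the 2-fold limit changed sign under any alternative run. Leaving out 3 more pool1 libraries changed no count of members; adding copies was run on log2 ratios only.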
